A study of Homo sapiens with 12 samples.

Results

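The 10 genes described here lie next to each other around *ERBB2* on the long arm of chromosome 17 (17q12). They are *PPP1R1B*, *STARD3*, *TCAP*, *PNMT*, *PGAP3*, *ERBB2*, *MIEN1*, *GRB7*, *IKZF3* and *ORMDL3*, in the order of their starts from the centromeric to the telomeric side. They were chosen by name as genes next to *ERBB2*, with earlier results of these data known. All 10 were found among the 57187 genes of the deposited count table. All 10 passed both filters on low counts that were used.

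*ERBB2* encodes the receptor tyrosine kinase HER2, which has no known ligand of its own and signals by pairing with the other members of its family, EGFR, ERBB3 and ERBB4. The receptor recruits adaptor proteins to its phosphorylated tail, and GRB7, encoded next to it, is one of them. In a share of breast and other cancers this stretch of the chromosome is amplified, and neighbouring genes are copied together with *ERBB2*. HCC1954 and SKOV3 are known from the literature as lines with such an amplification. DNA copy number was not measured in these data.

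The series held 12 RNA-seq libraries from 4 human tumour lines, of which MDA-MB-231 and HCC1954 derive from breast cancer and the other 2, OVCAR8 and SKOV3 (spelled OVAR-8 and SKOV-3 in the sample labels), from ovarian cancer. Each line gave 1 library of parental cells, labelled as untreated, 1 of cells stably expressing wild-type SIVA (*SIVA-WT*) and 1 of cells stably expressing the point mutant *SIVA-D160N*. The study used them to ask how the mutant alters expression in tumour cells. SIVA is a protein known for its part in apoptosis. The transfectants were polyclonal pools selected with hygromycin and driven by a CMV promoter. The study's methods describe the controls both as parental and as empty-vector cells, so it is not known whether they differ from the transfectants also in vector and selection. They are called parental here, as in the labels.

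Levels are given as CPM, that is, counts per 1000000 of the library size after TMM scaling. The total counts ran from 35791455 to 45890398 per library, which puts a gene without counts below 0.067 to 0.0837 CPM, taking 3 counts as the limit. This limit covers counting error only. The count of *SIVA1*, in which endogenous and introduced transcripts were not told apart, was higher in both transfectants than in the parental cells of all 4 lines. The parental HCC1954 library stood apart with 0 *SIVA1* counts, against 28.6 to 66.6 CPM in the other 3 parental libraries, and folds of single genes against it are given also against the *SIVA-WT* library of HCC1954. The mesenchymal gene *VIM* was high in MDA-MB-231, OVCAR8 and SKOV3, at 2944 to 3999 CPM. The epithelial cadherin gene *CDH1* was high in HCC1954, at 679 to 799 CPM, and below 0.5 CPM in the other 3 lines. Other epithelial and mesenchymal markers did not all follow these genes. *KRT8* had 1717 to 2054 CPM in OVCAR8, against 2688 to 3716 in HCC1954. *KRT19* had 64.6 to 91.3 CPM in MDA-MB-231, against 13.2 to 30.2 in HCC1954. The mesenchymal gene *CDH2* had only 0.135 to 0.204 CPM in MDA-MB-231. Of the 5 lymphocyte markers and the 4 striated muscle markers, summed levels stayed at or below 1.76 CPM and 6.47 CPM in each line.

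*ERBB2* and *PGAP3* stand head to head, with 36 bases between their starts, so that the windows upstream of both overlap. The sequences of both windows are shown because these genes share this stretch and both differed between the lines. Each window runs from 250 bases before to 50 bases after the most upstream start of the gene in RefSeq (GRCh38.p14), read 5′ to 3′ on the gene's own strand. The *ERBB2* window is chr17:39687844-39688143 (plus strand) and the *PGAP3* window is chr17:39688008-39688307 (minus strand). Capitals mark the 136 bases they share, chr17:39688008-39688143. Starts further inside *ERBB2* are not covered by this window. The window of *STARD3*, chr17:39636894-39637193 (plus strand), is shown as the only one among the 5 genes with an entry in which a match to the AP-2 consensus was found, and its capitals mark that match.
ERBB2: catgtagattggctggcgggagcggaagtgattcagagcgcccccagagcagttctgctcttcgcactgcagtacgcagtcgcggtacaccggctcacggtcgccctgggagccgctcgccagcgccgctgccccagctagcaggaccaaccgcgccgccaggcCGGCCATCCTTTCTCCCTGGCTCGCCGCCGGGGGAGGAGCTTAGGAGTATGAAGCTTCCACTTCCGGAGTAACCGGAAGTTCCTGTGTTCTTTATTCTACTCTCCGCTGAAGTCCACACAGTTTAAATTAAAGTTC
PGAP3: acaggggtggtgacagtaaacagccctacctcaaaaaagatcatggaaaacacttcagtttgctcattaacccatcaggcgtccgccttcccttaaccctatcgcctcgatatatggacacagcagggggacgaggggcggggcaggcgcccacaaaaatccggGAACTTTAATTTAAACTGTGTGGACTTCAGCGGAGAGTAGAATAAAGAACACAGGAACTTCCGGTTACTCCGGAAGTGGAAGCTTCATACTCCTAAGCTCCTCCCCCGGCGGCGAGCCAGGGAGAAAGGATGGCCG
STARD3: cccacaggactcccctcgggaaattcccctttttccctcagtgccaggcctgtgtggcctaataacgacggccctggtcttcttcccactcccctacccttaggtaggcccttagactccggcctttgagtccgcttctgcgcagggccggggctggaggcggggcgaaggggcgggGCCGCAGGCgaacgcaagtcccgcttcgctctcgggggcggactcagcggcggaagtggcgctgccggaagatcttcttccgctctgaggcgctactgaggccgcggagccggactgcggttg

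The windows of 5 of the 10 genes were in the RefSeq table (*ERBB2*, *PGAP3*, *STARD3*, *MIEN1* and *ORMDL3*, the last with 3 starts). Matches to 3 motifs were counted on both strands. The AP-2 consensus GCCNNNGGC had 1 match in the *STARD3* window and 0 in those of the other 4 genes, and 23.2% of the 35116 promoter windows of this length held it. The CCAAT box (CCAAT) had 1 match in the *ERBB2* window, outside the shared stretch, and 34.6% of all windows held it. The GC box GGGCGG had 1 or 2 matches in each window of the 5 genes other than that of *ERBB2*, which had 0, and 44.95% of all windows held it. A match is a run of letters and says nothing of binding.

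*ERBB2* itself (chr17:39688094-39728658) had the most counts of the 10 genes in each HCC1954 and SKOV3 library. Its level in HCC1954 was 9017 CPM in the parental, 7535 in the *SIVA-WT* and 5609 in the *SIVA-D160N* library. In SKOV3 it was 11934, 8824 and 5884 CPM in the same order. In MDA-MB-231 it ran from 32.6 to 36.8 CPM and in OVCAR8 from 69.9 to 78.4 CPM. The 6 libraries of HCC1954 and SKOV3 therefore lay far above the other 6, with no overlap, and *ERBB2* ranked 1st among all genes by counts in the parental SKOV3 library and 2nd in the parental HCC1954 library. HCC1954 exceeded MDA-MB-231 by 7.72 ± 0.24 on the log2 scale (SE, edgeR quasi-likelihood test, Benjamini-Hochberg adjusted p = 2.49e-10) and OVCAR8 by 6.65 ± 0.23 (edgeR adjusted p = 4.91e-10). SKOV3 exceeded MDA-MB-231 by 7.96 ± 0.24 (edgeR adjusted p = 3.46e-10). HCC1954 and SKOV3 overlapped in their ranges, and their difference of -0.24 ± 0.18 did not pass the test (edgeR adjusted p = 0.245). Between the lower lines, OVCAR8 was above MDA-MB-231 by 1.07 ± 0.18 (edgeR adjusted p = 3.01e-04), which is short of the fold required here.

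**Figure D1:**
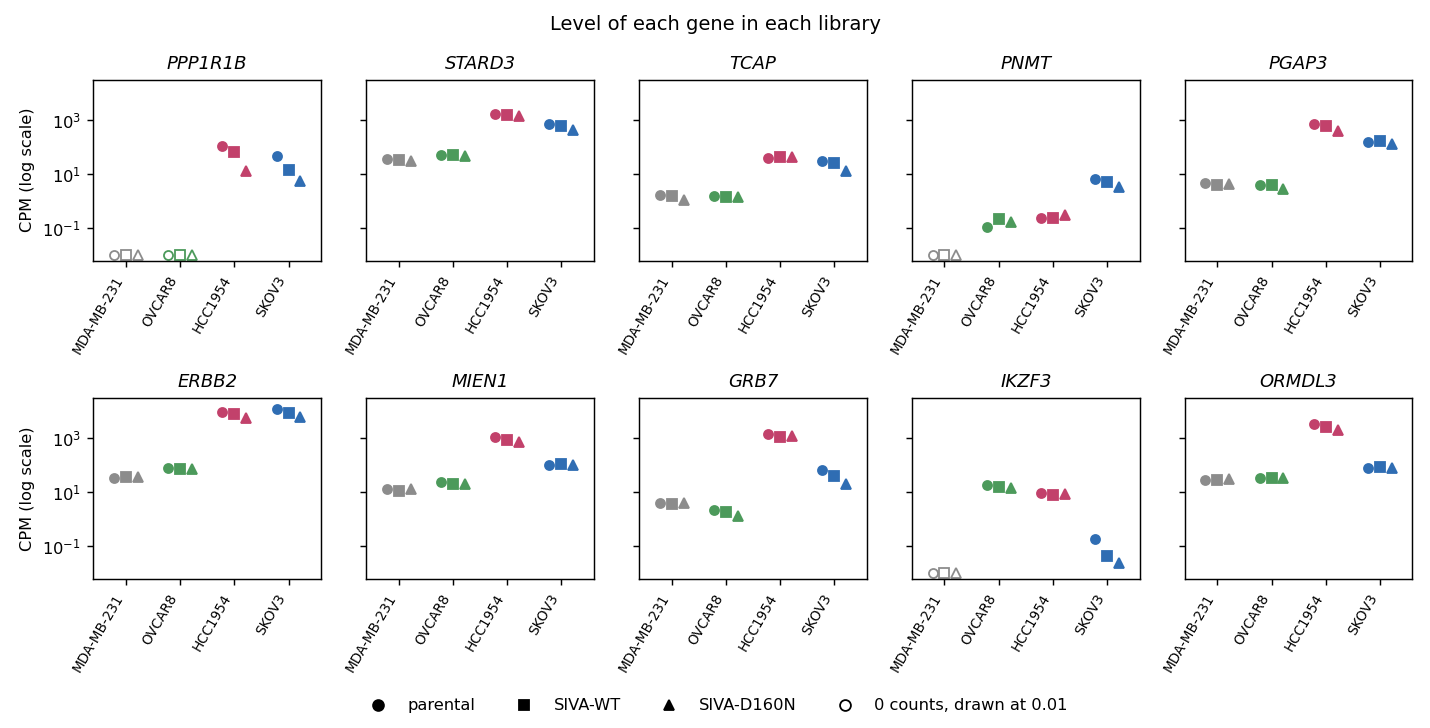
Level of each of the 10 genes in CPM (log axis) in the 12 libraries, ordered by position on the chromosome. Colours mark the line, symbols the condition, and open symbols at 0.01 stand for 0 counts. *ERBB2*, *STARD3*, *PGAP3*, *MIEN1*, *GRB7*, *TCAP* and *ORMDL3* are higher in each HCC1954 and SKOV3 library than in any of the other 2 lines. So are *PPP1R1B*, at 0 counts in those other lines, and *PNMT*, which has only 10 or 11 counts per HCC1954 library. *IKZF3* is highest in OVCAR8.

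Across the group, a gene was called when its adjusted p over all genes tested was under 0.05 and its log2 fold change was 1.5 or more in either direction. In HCC1954 vs MDA-MB-231, 10 of 10 genes were called higher, where 19.6% of the 19204 genes tested were called higher. In HCC1954 vs OVCAR8 it was 8 of 10, against 17.7% of all genes. SKOV3 vs MDA-MB-231 gave 10 of 10, against 17.2%, 1 of them (*IKZF3*) on 10 counts in all. In SKOV3 vs OVCAR8, 8 of 10 were called higher (15.3% of all genes) and 1 lower (*IKZF3*, 15.8% of all genes). *PPP1R1B*, *PNMT* and *IKZF3* had 0 counts in MDA-MB-231, and *PPP1R1B* had 0 also in OVCAR8. They could pass the filter only through other lines, so these calls are not independent of the filter. In HCC1954 vs MDA-MB-231, *PNMT* was called on 10 or 11 counts per library, with a mean at least 3.34-fold above the limit. The members' median log2 fold change was 6.675, 5.86, 4.12 and 4.24 in these comparisons, with genes at 0 counts in the lower line set at their bound and *IKZF3* left out of SKOV3 vs MDA-MB-231, while the median over all genes was at most 0.05. The 3 libraries of a line are its parental cells and both transfectants, so the p-values between lines cover the spread between these versions of each line. Nothing in the labels says that the versions came from separate cultures. Features of a line other than this region were not separated from it.

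The 2 lines with high *ERBB2* differed from each other in most of its neighbours. In HCC1954 vs SKOV3, 6 of 10 genes were called higher (16.8% of all genes) and 1 lower (16.0% of all genes). The genes called higher were *PPP1R1B*, *PGAP3*, *MIEN1*, *GRB7*, *IKZF3* and *ORMDL3*, and the gene called lower was *PNMT*. *STARD3* (1.47 ± 0.13) and *TCAP* (0.92 ± 0.21) had adjusted p-values of 1.26e-06 and 0.00182 by edgeR but smaller folds than required, and *ERBB2* did not pass. In OVCAR8 vs MDA-MB-231, 2 of the 9 genes tested were called higher (*PNMT* and *IKZF3*), against 15.7% of all genes, and the median of the 9 was 0.52. The call of *PNMT* rests on 4 to 8 counts per library in OVCAR8 and 0 in MDA-MB-231. Its bound of at least 2.08-fold is below the fold required.

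*GRB7* (chr17:39737938-39747285) encodes the SH2 adaptor that docks on the activated receptor. It stood at 1456, 1117 and 1187 CPM in the parental, *SIVA-WT* and *SIVA-D160N* libraries of HCC1954, and at 64.4, 40.4 and 19.8 CPM in those of SKOV3. MDA-MB-231 had 3.78 to 3.98 CPM and OVCAR8 1.34 to 2.12 CPM. No pair of lines overlapped. HCC1954 exceeded SKOV3 by 5.02 ± 0.27 on the log2 scale (edgeR adjusted p = 1.94e-08), while the difference of *ERBB2* between them did not pass the test. SKOV3 in turn exceeded MDA-MB-231 by 3.34 ± 0.27 (edgeR adjusted p = 6.09e-07).

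*MIEN1* (chr17:39728510-39730532) encodes a small membrane-anchored protein that has been linked to cell migration. Its libraries in HCC1954 had 1082, 878 and 746 CPM, and those in SKOV3 99.3, 113 and 99.5 CPM. OVCAR8 had 19.9 to 24.75 CPM and MDA-MB-231 10.96 to 12.8 CPM, so that the 4 lines formed 4 separate levels. The difference between HCC1954 and SKOV3 was 3.11 ± 0.14 (edgeR adjusted p = 3.27e-09). The 3′ ends of *MIEN1* and *ERBB2* overlap by 149 bases on opposite strands, and the strand setting of the counting is not given in the sources used here, so reads in that stretch cannot be told apart.

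*STARD3* (chr17:39637144-39664201), whose product moves cholesterol between the endoplasmic reticulum and late endosomes, had 1655, 1481 and 1410 CPM in HCC1954 and 699, 572 and 400 CPM in SKOV3. OVCAR8 had 43.8 to 47.5 CPM and MDA-MB-231 30.6 to 35.05 CPM. Every library of HCC1954 was above every library of SKOV3, and both lines were above the other pair. The excess over MDA-MB-231 was 5.59 ± 0.16 in HCC1954 (edgeR adjusted p = 1.73e-10) and 4.12 ± 0.15 in SKOV3 (edgeR adjusted p = 1.10e-09). *PGAP3* (chr17:39671122-39688057) encodes an enzyme that remodels the lipid of GPI anchors. It was at 686.5, 604 and 377 CPM in HCC1954, at 154, 163 and 124 CPM in SKOV3, and at 2.76 to 4.635 CPM in MDA-MB-231 and OVCAR8, whose ranges overlapped. HCC1954 exceeded SKOV3 by 1.90 ± 0.14 (edgeR adjusted p = 2.35e-07).

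*ORMDL3* (chr17:39921041-39927601) encodes an endoplasmic reticulum protein that restrains sphingolipid synthesis, and it lies farthest from *ERBB2* among the 10. It reached 3402, 2563 and 2056 CPM in HCC1954. SKOV3 had 80.9, 85.9 and 80.4 CPM, OVCAR8 33.1 to 34.9 CPM and MDA-MB-231 27.9 to 29.7 CPM. HCC1954 stood apart from the other 3 lines, and the difference between HCC1954 and SKOV3 was 5.01 ± 0.16 (edgeR adjusted p = 3.39e-10). SKOV3 exceeded MDA-MB-231 by 1.545 ± 0.14 (edgeR adjusted p = 1.97e-06), just past the fold required, and OVCAR8 by 1.30 ± 0.14 (edgeR adjusted p = 7.275e-06), just short of it. Without the parental MDA-MB-231 library the first of these was 1.47 and no longer called.

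The group holds 4 genes known for roles in other tissues, namely striatal neurons (*PPP1R1B*), striated muscle (*TCAP*), adrenal medulla (*PNMT*) and lymphocytes (*IKZF3*). *PPP1R1B* (chr17:39626707-39636624) encodes DARPP-32, an inhibitor of protein phosphatase 1 that is switched by protein kinase A. It had 0 counts in all 6 libraries of MDA-MB-231 and OVCAR8. In HCC1954 it had 110 CPM in the parental, 65.3 in the *SIVA-WT* and 12.95 in the *SIVA-D160N* library, and in SKOV3 43.9, 14.1 and 5.54 CPM. The ranges of HCC1954 and SKOV3 overlapped, and every one of these 6 libraries was above the limit for a gene without counts. The mean over the 3 libraries was at least 818-fold higher in HCC1954 and at least 276-fold higher in SKOV3 than the limit in MDA-MB-231. HCC1954 exceeded SKOV3 by 1.60 ± 0.21 (edgeR adjusted p = 2.63e-04), and this was 1.28 without the *SIVA-WT* library of HCC1954 and 1.27 without that of SKOV3, both under the fold required.

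*TCAP* (chr17:39665349-39666554) encodes telethonin of the sarcomere. It was at 39.2, 39.8 and 41.7 CPM in HCC1954 and at 29.5, 24.7 and 12.95 CPM in SKOV3, against 1.105 to 1.60 CPM in MDA-MB-231 and OVCAR8. The 6 higher libraries did not overlap the other 6, and HCC1954 exceeded MDA-MB-231 by 4.92 ± 0.25 (edgeR adjusted p = 1.06e-08). Of the 4 striated muscle markers, 0 had over 3 counts in a library of HCC1954 (summed level 0.0558 to 0.0909 CPM) and 2, *TTN* and *DES*, in SKOV3 (0.134 to 0.286 CPM), against 0.958 to 1.42 CPM in MDA-MB-231 and 5.75 to 6.47 CPM in OVCAR8. *ACTN2* and *MYH7* had at most 3 counts in each HCC1954 and SKOV3 library. *PNMT* (chr17:39668019-39670475), the enzyme that makes adrenaline from noradrenaline, was the gene of the group that set SKOV3 above HCC1954. It had 6.16, 4.82 and 3.11 CPM in SKOV3, from 237, 216 and 128 counts, and 0.227 to 0.307 CPM in HCC1954, from 10 or 11 counts. OVCAR8 had 4 to 8 counts and MDA-MB-231 0. The log2 fold change of HCC1954 vs SKOV3 was -4.15 ± 0.36 (edgeR adjusted p = 3.965e-06). Of the 3 chromaffin cell markers, *DBH* and *CHGA* had at most 3 counts in each library, and the third, *TH*, had over 3 in at least 1 library of each line. Their summed level was 4.99 to 6.83 CPM in OVCAR8, all of it *TH*, and at most 0.375 CPM in the other lines.

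*IKZF3* (chr17:39757715-39864312) encodes Aiolos, a transcription factor of lymphocytes. It ran against the rest of the group, with 14.75 to 17.8 CPM in OVCAR8, 8.12 to 9.01 CPM in HCC1954, 7, 2 and 1 counts in the SKOV3 libraries and 0 counts in MDA-MB-231. The 4 lines did not overlap. HCC1954 was below OVCAR8 by a log2 fold change of -0.86 ± 0.23 (edgeR adjusted p = 0.00779), which is under the fold required. SKOV3 was below OVCAR8 with a log2 fold change of -7.55 ± 0.37 (edgeR adjusted p = 8.97e-08), a value that rests on 10 counts in SKOV3. Both flanking members, *GRB7* and *ORMDL3*, were higher in SKOV3 than in MDA-MB-231, while *IKZF3* between them was at or near the limit of detection in both lines. Of the 5 lymphocyte markers, *CD3E* and *MS4A1* had at most 3 counts in each library.

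Levels of different genes can be compared only per length, and for this the CPM was divided by the kilobases of annotated exon. Per kilobase, *ERBB2* (716 ± 166, SD, n = 3) and *ORMDL3* (713 ± 181) led in HCC1954 and overlapped, followed by *MIEN1* at 443 ± 83.0 and *GRB7* at 349 ± 49.8, which overlapped each other. In SKOV3, *ERBB2* led alone at 861 ± 293 CPM per kilobase, and the next genes were *STARD3* at 95.2 ± 25.7, *MIEN1* at 51.1 ± 3.91 and *PGAP3* at 40.6 ± 5.70, without overlap. *ORMDL3* was 6th there, at 22.0 ± 0.80. In the lines with low *ERBB2* the order was another: *ORMDL3* (7.68 ± 0.24) led in MDA-MB-231 and *MIEN1* (10.7 ± 1.275) in OVCAR8, and *ERBB2* was 4th in both, at 3.40 ± 0.21 and 7.21 ± 0.41. These SDs cover the 3 conditions of a line.

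**Figure D2:**
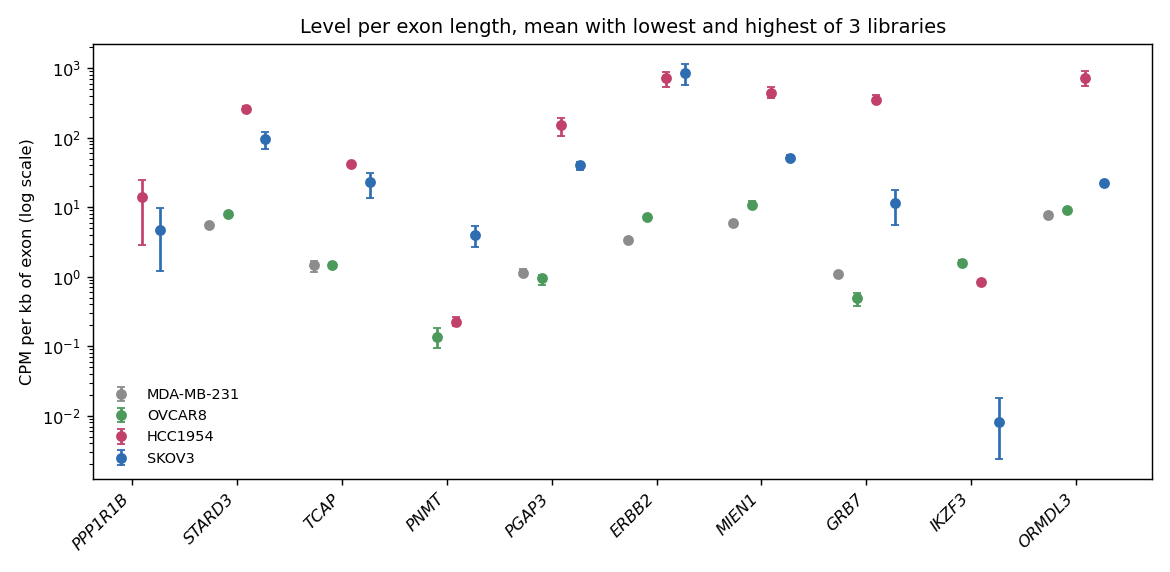
Level of each gene per kilobase of exon (log axis) in the 4 lines, as the mean with the lowest and highest of the 3 libraries. Genes with a library at 0 counts are left out for that line. *ERBB2* and *ORMDL3* are level at the top in HCC1954, while in SKOV3 *ERBB2* at 861 lies above *STARD3* at 95.2 and all other genes.

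The 10 genes took 1.72% of all counts in the parental HCC1954 library (Wilson 95% interval 1.719 to 1.727, counting error only), 1.47% in *SIVA-WT* and 1.13% in *SIVA-D160N*. In SKOV3 the shares were 1.41% (1.407 to 1.414), 1.005% and 0.671%. MDA-MB-231 had 0.0115% to 0.0118% and OVCAR8 0.0185% to 0.02%. The share was lowest in the *SIVA-D160N* library in HCC1954, OVCAR8 and SKOV3, but not in MDA-MB-231.

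Genes outside the 10 were examined to see how far along the chromosome the differences between lines reached. RefSeq places 110 genes with a start within 1 Mb of that of *ERBB2*, of which 68 were in the count table, 58 besides the 10, and 34 of the 58 passed the filter on low counts (16 on the centromeric and 18 on the telomeric side). Of these 34, 7 (20.6%) were called higher in HCC1954 vs MDA-MB-231 and 7 (20.6%) in HCC1954 vs OVCAR8, close to the shares of all genes given above. In SKOV3 vs MDA-MB-231 and vs OVCAR8 it was 3 of 34 each (8.82%). Called lower were 3 and 4 of the 34 in the HCC1954 comparisons and 4 in each SKOV3 comparison. Of all 19204 genes, 6339 and 6596 were called in either direction in the HCC1954 comparisons, of which 3756 and 3401 were higher. In the SKOV3 comparisons 5680 and 5976 were called, of which 3308 and 2943 were higher. The median log2 fold change of the 34 was 0.24 and 0.16 for HCC1954 and 0.75 and 0.70 for SKOV3.

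On the centromeric side the nearest gene kept was *CDK12*, 227 kb from the start of *ERBB2*, followed by *MED1* (284 kb) and *FBXL20* (435 kb), a cyclin-dependent kinase, a Mediator subunit and an F-box protein. None was called in HCC1954 or SKOV3 against MDA-MB-231 or OVCAR8. *CDK12* had 103 to 146 CPM in HCC1954, 86.0 to 107 in OVCAR8, 98.1 to 117 in MDA-MB-231 and 186 to 212 in SKOV3. SKOV3 was thus above the other lines, by 0.94 ± 0.12 on the log2 scale over MDA-MB-231 (edgeR adjusted p = 3.29e-05), which is under the fold required. *MED1* showed a similar value, 1.27 ± 0.15 (edgeR adjusted p = 1.50e-05).

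On the telomeric side the nearest was *MIR4728*, a microRNA gene inside *ERBB2*, with 0 counts in MDA-MB-231 and OVCAR8 and 0.729 to 1.48 CPM in HCC1954 and SKOV3. Its counts cannot be told apart from reads of *ERBB2*. *GSDMB*, a pore-forming gasdermin gene 216.5 kb away and between *IKZF3* and *ORMDL3*, had 738, 1019 and 684 CPM in HCC1954, 25.2 to 42.4 in SKOV3, 11.3 to 13.6 in OVCAR8 and 5.06 to 7.04 in MDA-MB-231. HCC1954 exceeded SKOV3 by 4.62 ± 0.17 (edgeR adjusted p = 7.39e-10), as *ORMDL3* did. *GSDMA* at 275 kb was called higher in HCC1954 vs MDA-MB-231 and vs OVCAR8 at a level of 0.328 to 1.79 CPM. *PSMD3*, at 293 kb and singled out after its values were seen, was at 188 to 230 CPM in HCC1954 and at 177.5 to 203 CPM in MDA-MB-231, ranges that overlapped. Each gene kept from *PPP1R1B* to *ORMDL3*, other than *PNMT* and *IKZF3*, was thus called higher in HCC1954 than in both MDA-MB-231 and OVCAR8. The difference of *PSMD3* between HCC1954 and MDA-MB-231 did not pass the test (0.22 ± 0.12, edgeR adjusted p = 0.128). In SKOV3 *PSMD3* was higher, at 326 to 389 CPM, against 205 to 247 CPM in OVCAR8. SKOV3 exceeded MDA-MB-231 by 0.98 ± 0.12 (edgeR adjusted p = 2.08e-05) and OVCAR8 by 0.75 ± 0.12 (edgeR adjusted p = 1.54e-04), both under the fold required.

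The farthest genes called in the same direction as *ERBB2* within 1 Mb were *LASP1NB* (762.5 kb centromeric) and *TNS4* (788 kb telomeric) in HCC1954 vs MDA-MB-231, and *MLLT6* (983 kb centromeric) and again *TNS4* in HCC1954 vs OVCAR8. *TNS4*, which encodes a tensin, was at 164 to 172 CPM in HCC1954 and at most 0.105 CPM in OVCAR8 and SKOV3. In SKOV3 they were *THRA* (374 kb), a thyroid hormone receptor gene, against MDA-MB-231 and *NR1D1* (405 kb), a clock repressor gene, against OVCAR8, and on the centromeric side 0 genes were called higher, while 1 against MDA-MB-231 and 2 against OVCAR8 were called lower. *THRA* had 58.6 to 80.5 CPM in SKOV3 and 13.1 to 22.0 CPM in the other 3 lines, with a log2 fold change of 2.11 ± 0.16 over MDA-MB-231 (edgeR adjusted p = 4.76e-07). Between these genes and the 10, most genes kept were not called, as the plot of differences along the chromosome shows.

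**Figure D3:**
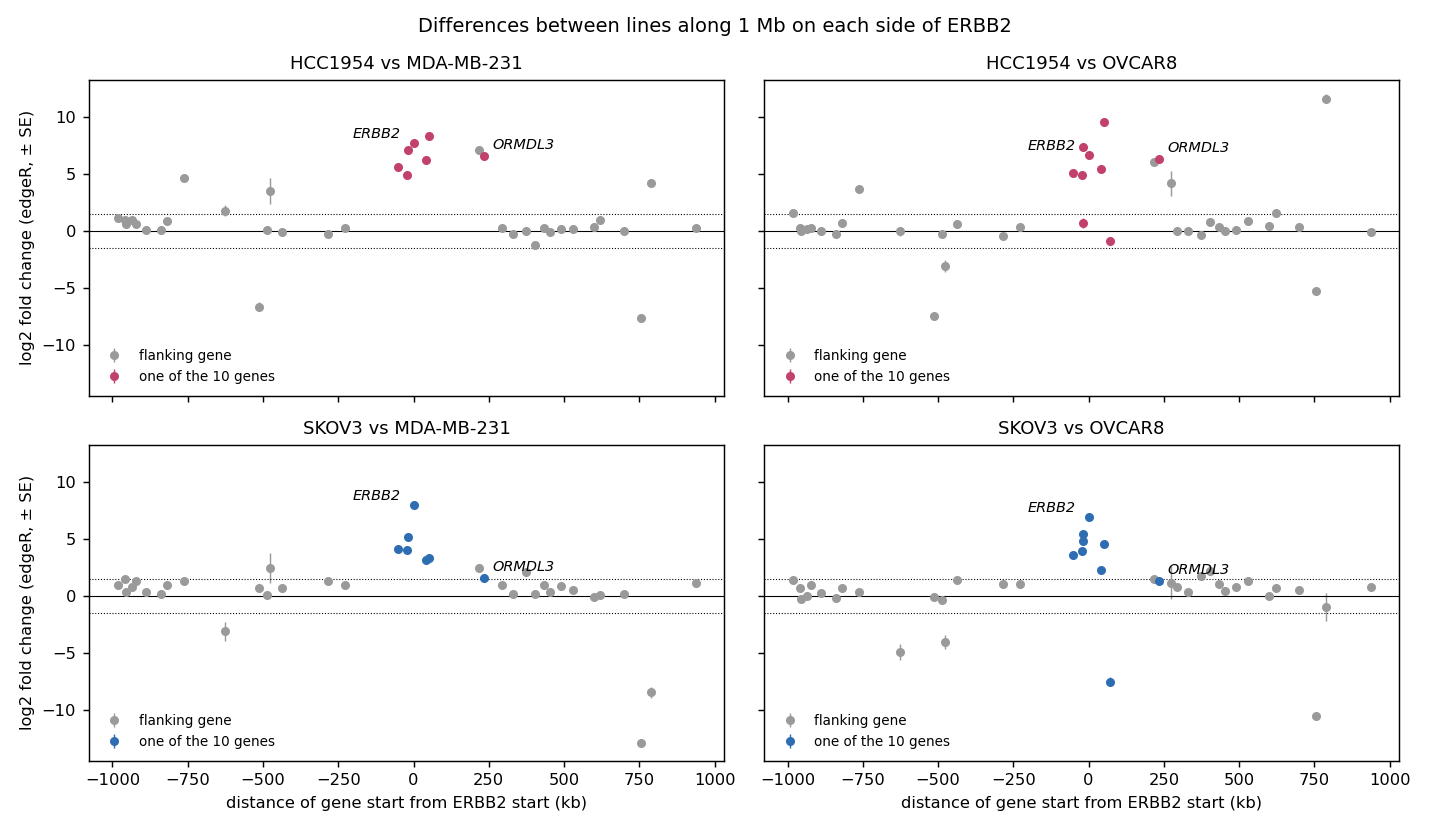
Log2 fold change between lines (edgeR, bars are the SE) of the 10 genes (colour) and the flanking genes (grey) against the distance of the gene start from that of *ERBB2* in kb. Dotted lines mark the fold required, and genes with 0 counts in all libraries of 1 line are left out. In HCC1954 those of the 10 genes that are drawn, other than *PNMT* and *IKZF3* against OVCAR8, lie above the fold required together with *GSDMB*, and most grey points lie between the dotted lines, with single ones such as *CACNB1* (-6.69) and *TNS4* (4.16) against MDA-MB-231 far outside. In SKOV3 the difference runs from *ERBB2* at 7.96 to *ORMDL3* at 1.545 over MDA-MB-231.

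The other genes of the pathway were taken from 2 lists, the paralogs of the 10 genes elsewhere in the genome (14 genes, 12 tested) and the partners and adaptors of the receptor (20 genes, all tested). *EGFR*, *ERBB3* and *ERBB4* are in both. Of the paralogs, 2 were called higher and 2 lower in HCC1954 vs MDA-MB-231, and 2 higher and 3 lower in SKOV3 vs MDA-MB-231. Of the partners and adaptors it was 2 higher and 3 lower in the first comparison and 1 higher and 1 lower in the second. The medians of the lists were -0.44 and -0.32 for the paralogs and -0.28 and -0.06 for the partners. Against OVCAR8, 4 paralogs were called higher and 1 lower in HCC1954, and 3 higher and 1 lower in SKOV3, and 2 partners were called higher and 2 lower in HCC1954, and 1 higher and 2 lower in SKOV3. In HCC1954 vs SKOV3 it was 3 higher and 3 lower of the paralogs and 3 higher and 2 lower of the partners, and in OVCAR8 vs MDA-MB-231 1 higher and 4 lower of the paralogs and 2 higher and 1 lower of the partners. Of all 19204 genes tested, 15.3% to 19.6% were called higher in a comparison of lines. In either direction, 5054 to 6596 of the 19204 were called. The counts of the lists were not tested against these shares. In the comparisons of conditions 0 genes of either list were called by edgeR or DESeq2. At an unadjusted p under 0.05 by edgeR there were at most 2 of 12 paralogs and 3 of 20 partners. Both counts were in *SIVA-D160N* vs parental, where 14.2% of all genes had such a p.

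Among the receptors that pair with HER2, *ERBB3* separated the 2 lines with high *ERBB2*. It had 98.4, 99.1 and 73.65 CPM in HCC1954 and 1.00 to 1.14 CPM in SKOV3, a log2 fold change of 6.38 ± 0.17 (edgeR adjusted p = 9.64e-11). OVCAR8 had 27.5 to 37.15 CPM and MDA-MB-231 0.983 to 1.66 CPM. *ERBB4* went the other way, with 5.90 to 8.06 CPM in SKOV3 and 0.0682 to 0.141 CPM in HCC1954 (log2 fold change of HCC1954 vs SKOV3 -6.09 ± 0.40, edgeR adjusted p = 9.46e-08). *EGFR*, named outside the rule for list genes, was at 180.7 to 359.5 CPM in all 12 libraries and was not called between HCC1954 or SKOV3 and the other lines.

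Of the other partners, the kinase gene *PTK6* and the phosphatidylinositol 3-kinase subunit gene *PIK3R1* were among the list genes with the largest changes. *PTK6* had 0 counts in SKOV3, where it was called lower than in each of the other lines, and 3.85 to 4.64 CPM in HCC1954, 5.78 to 6.49 in OVCAR8 and 11.1 to 18.6 in MDA-MB-231. *PIK3R1* was higher in HCC1954, at 152, 215 and 57.5 CPM, than in MDA-MB-231 by 2.56 ± 0.34 (edgeR adjusted p = 3.115e-05) and than in OVCAR8 by 2.55 ± 0.34 (edgeR adjusted p = 3.02e-05).

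Of the paralogs, the adaptor gene *GRB10*, of the same family as *GRB7*, was lower in HCC1954 (24.1 to 29.7 CPM) than in MDA-MB-231 (70.2 to 168 CPM), by a log2 fold change of -1.92 ± 0.18 (edgeR adjusted p = 1.71e-06). In OVCAR8 it had 5.39 to 6.305 CPM, below MDA-MB-231 with -4.20 ± 0.20 (edgeR adjusted p = 1.20e-08). *GRB14*, the third member of that family, was higher in SKOV3 (5.58 to 8.035 CPM) than in MDA-MB-231 (1.33 to 2.04 CPM) by 2.02 ± 0.23 (edgeR adjusted p = 1.01e-05). *IKZF2*, a paralog of *IKZF3*, was at 21.7 to 31.4 CPM in HCC1954 and exceeded SKOV3 (0.982 to 1.74 CPM) by 4.495 ± 0.27 (edgeR adjusted p = 3.82e-08). *PPP1R1C*, a paralog of *PPP1R1B*, was called in all 6 comparisons of lines but HCC1954 vs MDA-MB-231, on low counts. It had 11 to 29 counts per library in MDA-MB-231, 12 to 18 in HCC1954, 2 to 5 in SKOV3 and at most 1 in OVCAR8.

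Outside the region, the genes whose log2 CPM followed that of *ERBB2* most closely over the 12 libraries were *FBXL16* (Pearson r = 0.997), *ARHGEF37* (0.996), *PADI1* (0.995), *PI4KA* (0.994) and *CASC9* (0.992), on chromosomes 16, 5, 1, 22 and 8. Within the group r with *ERBB2* was 0.976 for *PPP1R1B* and *TCAP*, 0.969 for *STARD3*, 0.962 for *PGAP3*, 0.876 for *MIEN1*, 0.838 for *GRB7*, 0.788 for *PNMT*, 0.723 for *ORMDL3* and 0.10 for *IKZF3*. These values are descriptions. The 12 libraries share 4 lines and fall into a high and a low cluster, and r reflects mainly the difference between these clusters. *PI4KA*, a lipid kinase gene, was at a mean of 177 CPM in HCC1954 and 191 in SKOV3 against 53.1 in MDA-MB-231 and 68.3 in OVCAR8.

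The comparison the study was designed for is that of the conditions, with the 4 lines as replicates (n = 4) and the line as a block in the fit. All 10 genes had a fitted log2 fold change below 0 in *SIVA-D160N* vs parental, as did 51.7% of all genes. All 10 were below 0 also in *SIVA-WT* vs parental (51.6% of all genes) and in *SIVA-D160N* vs *SIVA-WT* (50.6%). In *SIVA-D160N* vs parental, 0 of 10 were called by edgeR's quasi-likelihood test, where 1 of 17211 genes (0.00581%) was called in either direction. At an unadjusted p under 0.05 it was 6 of 10 genes, against 14.2% of all genes. The median of the 10 was -0.43 and that of all genes -0.01. In bulk libraries, fewer cells that express a gene and less RNA per cell cannot be told apart. DESeq2 called 1 of the 10, *PPP1R1B*, and so did edgeR with every gene of at least 1 count kept.

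*PPP1R1B* had the lowest value, with a log2 fold change of -3.04 ± 0.28 (edgeR adjusted p = 0.1003). It was lower in *SIVA-D160N* than in the parental cells in both lines that had counts for it, by 8.48-fold in HCC1954 (4684 and 464 counts) and 7.93-fold in SKOV3 (1691 and 228 counts). The other 2 lines had 0 counts and add nothing to this value. Over the alternatives the adjusted p ran from 8.58e-13 with DESeq2 to 1, and the fold change from -3.07 to -2.95, so the size held and the call did not. *GRB7* (-0.68 ± 0.23), *PGAP3* (-0.46 ± 0.13), *ERBB2* (-0.44 ± 0.16), *TCAP* (-0.44 ± 0.20) and *STARD3* (-0.34 ± 0.11) made up the rest of those under 0.05 before adjustment, with edgeR adjusted p-values of 0.237, 0.189, 0.265, 0.345 and 0.237. *ERBB2* was lower in *SIVA-D160N* in 3 of 4 lines and higher in MDA-MB-231. The size of these values depended on single lines. Without SKOV3, *GRB7* was at -0.28, *ERBB2* at -0.24, *TCAP* at -0.13 and *STARD3* at -0.18, and without HCC1954 *PGAP3* was at -0.30 and *TCAP* at -0.69. Over all alternatives the values ran from -0.89 to -0.28 for *GRB7*, from -0.865 to -0.24 for *ERBB2* and from -0.74 to -0.30 for *PGAP3*, and their edgeR adjusted p-values were lowest with every gene kept, at 0.00736, 0.0174 and 0.0344, while the folds stayed under the one required.

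In *SIVA-WT* vs parental, 0 of 10 genes were called by edgeR and 0 by DESeq2, where 0% of all genes were called by edgeR and 1 gene by DESeq2. *PPP1R1B* was the 1 gene of the 10 with an unadjusted p under 0.05, against 2.54% of all genes, at -1.17 ± 0.26 (edgeR adjusted p = 1). It was -1.65 without HCC1954 and -0.75 without SKOV3, and the adjusted p over the alternatives ran from 0.00782, with every gene kept, to 1. In *SIVA-D160N* vs *SIVA-WT*, 0 of 10 were called by edgeR (0% of all genes, 4 genes by DESeq2) and 1 of 10, *PPP1R1B*, by DESeq2. An unadjusted p under 0.05 was found for 2 of 10, against 6.88% of all genes. They were *PPP1R1B* (-1.87 ± 0.27) and *PGAP3* (-0.38 ± 0.13), both with an edgeR adjusted p of 0.7185. Over the alternatives the value of *PPP1R1B* ran from -2.32 without SKOV3 to -1.33 without HCC1954, and that of *PGAP3* from -0.61 with no replicate block to -0.27 without HCC1954. These comparisons share libraries with each other and with the one above, so their values are not independent of it. Whether *SIVA-D160N* vs parental differed between ovarian and breast lines was tested with edgeR's interaction term, by which 0 of 10 genes were called against 0.00581% of all genes, and 2 lines of each tissue limit this test. The lowest p was that of *GRB7*, with a difference of -1.16 ± 0.31 (unadjusted p = 0.00446 and adjusted p = 0.840 by edgeR, n = 2 lines of each tissue).

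Within a line there was 1 library per condition and so no test, and genes are counted here at a fold of 2. In SKOV3, 4 of the 9 genes with over 3 counts were at least 2-fold lower in *SIVA-D160N* than in the parental library, where 6.37% of all genes tested were. They were *PPP1R1B*, *GRB7* (3.25-fold), *TCAP* (2.28-fold) and *ERBB2* (2.03-fold), and *PNMT* was just outside at 1.98-fold. *MIEN1* and *ORMDL3*, with 99.3 and 80.9 CPM in the parental library, had 99.5 and 80.4 CPM in *SIVA-D160N*. In HCC1954, 1 of 10 was at least 2-fold lower (*PPP1R1B*), against 6.21% of all genes, and the next were *PGAP3* at 1.82-fold, *ORMDL3* at 1.655-fold and *ERBB2* at 1.61-fold. Against the *SIVA-WT* library of HCC1954, which does not involve the parental library with 0 *SIVA1* counts, *SIVA-D160N* was lower by 5.04-fold for *PPP1R1B*, 1.60-fold for *PGAP3*, 1.247-fold for *ORMDL3* and 1.34-fold for *ERBB2*.

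In *SIVA-WT*, at least 2-fold lower than parental were 0 of 10 genes in HCC1954 (1.19% of all genes) and 1 of 9 in SKOV3 (*PPP1R1B* at 3.11-fold, 4.11% of all genes). The order parental above *SIVA-WT* above *SIVA-D160N* was found for 6 of 10 genes in HCC1954 (19.8% of all genes), namely *PPP1R1B*, *STARD3*, *PGAP3*, *ERBB2*, *MIEN1* and *ORMDL3*. In SKOV3 it was 6 of 9 (23.6% of all genes), namely *PPP1R1B*, *STARD3*, *TCAP*, *PNMT*, *ERBB2* and *GRB7*. *PPP1R1B*, *STARD3* and *ERBB2* kept this order in both lines. The order was not particular to these lines. It was found for 4 of 9 genes in OVCAR8 (*STARD3*, *ERBB2*, *GRB7* and *IKZF3*) and for 2 of 7 in MDA-MB-231 (*STARD3* and *TCAP*). For OVCAR8 and MDA-MB-231 the share of all genes in this order was not computed.

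In MDA-MB-231 and OVCAR8 the ratios were nearer to 0. No gene of the group was 2-fold lower or higher in either transfectant of MDA-MB-231 or OVCAR8. The median log2 ratio of *SIVA-D160N* to parental over the genes with counts was -0.02 in MDA-MB-231, -0.17 in OVCAR8, -0.42 in HCC1954 and -0.97 in SKOV3, and that of all genes was 0 or -0.01 in each. Over the 34 flanking genes it was -0.09 in HCC1954 and -0.06 in SKOV3, with 1 and 2 of them at least 2-fold lower.

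**Figure D4:**
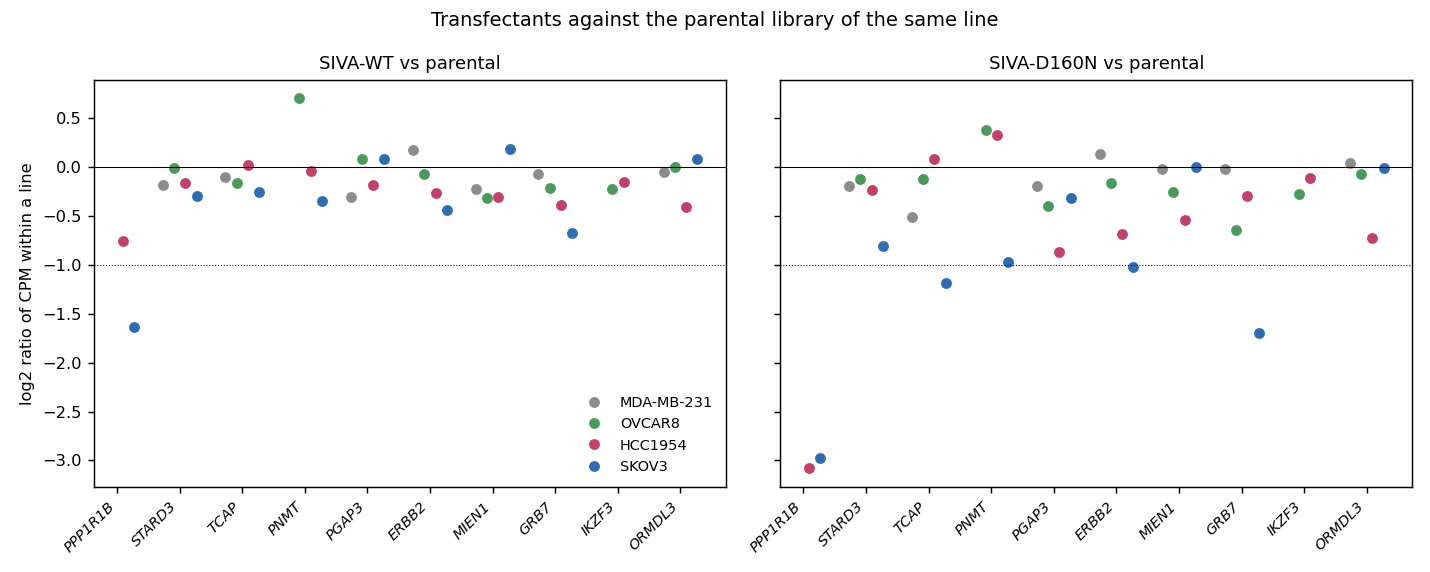
Log2 ratio of CPM in each transfectant to the parental library of the same line (prior count of 2) for the 10 genes, ordered by position, 1 point per line. The dotted line marks a 2-fold lower value, and genes with at most 3 counts in a library are left out. *PPP1R1B* lies at -3.08 in HCC1954 and -2.98 in SKOV3 in *SIVA-D160N*, while most points of MDA-MB-231 and OVCAR8 lie within 0.5 of 0.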

How the data were processed

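The authors sequenced stranded mRNA libraries of 12 samples (4 lines, 3 conditions, 1 library each). Reads were aligned to GRCh38 with STAR (2.5.3a per the submitters' processing notes). The authors deposited raw counts for 57187 genes, which were used here. The annotation release and the strand setting of the counts are not given in the sources used here. The deposited CPM values were not used, since CPM was computed from the counts.

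Counts were fitted with edgeR 4.0.16 in R 4.3.3 (glmQLFit and glmQLFTest, TMM). Line comparisons used a model of line and condition over all 12 libraries and the 19204 genes that passed filterByExpr by line. Condition comparisons used the same model, in which the line is the replicate block, and the 17211 genes that passed filterByExpr by condition. A gene was called when its Benjamini-Hochberg adjusted p over all genes tested was under 0.05 and its log2 fold change was 1.5 or more in either direction, and in the interaction at an adjusted p under 0.05. Log2 ratios within a line used a prior count of 2. Where a line had 0 counts throughout, a fold is a bound set at 3 counts per library, from the library with the highest such limit. The fit was tested on simulated data.

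Libraries of 1 line deviated together from their condition's mean (r of 0.929 to 0.968 over 12 pairs), while libraries of different lines had r of -0.432 to -0.193 (36 pairs), so the line pairs the samples. Nothing in the labels says that the versions of a line came from separate cultures, so p-values measure the spread between these samples.

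Positions are those of RefSeq for GRCh38.p14, and exon lengths are from GENCODE v44, lifted to GRCh37, used for lengths only. All 10 genes were named, with the 3 nearest flanking genes kept on each side, the farthest called one within 1 Mb in the direction of *ERBB2*, up to 4 list genes per comparison with the largest changes past the thresholds, and the 5 genes most correlated with *ERBB2*. The 10 genes, the lists and this rule were chosen with earlier results of these data known. DESeq2 1.42.0, RLE size factors, no filter, no replicate block and leaving out lines or libraries were the alternatives. Python 3.11.15 with matplotlib 3.10.9 drew the figures.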

Additional observations from a re-analysis of the deposited data

Results flagged for a closer look

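For each gene, the 4 lines gave 4 levels in each condition and 4 log2 ratios in each of the 3 comparisons of conditions. None of the 30 sets of levels and 3 of the 27 sets of ratios had a line standing far from the others, where chance gives about 1.35 of 27 (1 in 20). *STARD3* in *SIVA-D160N* vs parental was at -0.806 in SKOV3, while the other 3 lines lay between -0.23 and -0.12. *ORMDL3* in the same comparison was at -0.727 in HCC1954, against -0.07 to 0.05 in the other lines, and against the *SIVA-WT* library of HCC1954 it was at -0.32. The parental HCC1954 library is the one with 0 *SIVA1* counts, and its part in this value was not tested. In the same comparison *IKZF3* was at -1.646 in SKOV3, a value that rests on 7 counts in the parental and 1 in the *SIVA-D160N* library.

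For 2 genes both breast lines lay on one side of 0 and both ovarian lines on the other in *SIVA-WT* vs parental. *PGAP3* was lower in the breast lines and higher in the ovarian lines, with mean log2 ratios that differed by -0.331 (breast minus ovarian), and *ORMDL3* likewise by -0.272. *ORMDL3* was near 0 in MDA-MB-231 (-0.04) and OVCAR8 (0.01), and its largest ratio was that of HCC1954, at -0.41. These differences were not tested, and the breast values include the parental HCC1954 library. How many of all genes split in this way was not counted, so the 2 genes cannot be set against a share.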

How the results depend on the processing

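Between lines, of 885 values for single genes under other settings, 878 kept their direction and side of the thresholds, 3 lost the call, 3 gained it and 1 changed sign. *ORMDL3* in SKOV3 vs MDA-MB-231 was 1.473 without the parental MDA-MB-231 library, and *PPP1R1B* in HCC1954 vs SKOV3 was 1.283 or 1.266 without the *SIVA-WT* library of HCC1954 or SKOV3. *STARD3* in HCC1954 vs SKOV3 passed the fold at 1.503 with DESeq2 and with RLE size factors and at 1.600 without the parental SKOV3 library. *TCAP* in OVCAR8 vs MDA-MB-231, near 0 throughout, was -0.091 without the *SIVA-D160N* library of OVCAR8 and up to 0.123 without another library.

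The calls between conditions depended on the tool and the filter, and the cause was not tested. Of the 10 genes, 1 (*PPP1R1B*) was called in *SIVA-D160N* vs parental and in *SIVA-D160N* vs *SIVA-WT* with DESeq2 and 1 with every gene of at least 1 count kept, in place of 0. Over all genes, *SIVA-D160N* vs parental gave 1 call, 12 with DESeq2, 172 with every gene kept, 0 with no replicate block and 2 without HCC1954, 2 without OVCAR8 and 0 without either of the others. In the same order (edgeR, DESeq2, every gene kept, no replicate block), *SIVA-D160N* vs *SIVA-WT* gave 0, 4, 59 and 0 calls, and *SIVA-WT* vs parental gave 0, 1, 10 and 0. With no replicate block, 0 of the 10 genes were called in each comparison. The interaction gave 101 genes with every gene kept, in place of 1, and among the 10 called 1, *GRB7*, at -1.148 (adjusted p = 0.0407).

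Signs turned for values close to 0. *ORMDL3* in *SIVA-WT* vs parental was 0.015 without HCC1954 and as low as -0.159 without another line. In *SIVA-D160N* vs *SIVA-WT*, *MIEN1* was 0.022 without HCC1954, 0.010 without SKOV3 and -0.119 without MDA-MB-231, *IKZF3* was 0.005 without SKOV3 and -0.076 without HCC1954, and *GRB7* was 0.061 with no replicate block. A window of 0.5 Mb in place of 1 Mb changed the share of flanking genes called higher from 20.6% to 26.7% and 20% in HCC1954 vs MDA-MB-231 and OVCAR8, and from 8.82% to 20% in both SKOV3 comparisons, on 15 genes. A prior count of 0.5 changed no count of 2-fold lower genes within a line.

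With 1 library per line and condition, differences within a line have no replicate check, and *PPP1R1B* rests on 2 lines. Depth limits *IKZF3* in SKOV3 and *PNMT* in HCC1954, OVCAR8 and MDA-MB-231, which had at most 11 counts per library.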
